A study of Mus musculus with 12 samples.

Results

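The 45 genes described here encode the machinery that copies DNA, and they were followed by RNA-seq in mouse muscle satellite cells with and without the chemokine receptor gene Cxcr4. They were taken by symbol from the table of read counts, where each of the 45 matched 1 of 55401 genes. Over the 12 libraries together all 45 had enough reads to enter the test with the other genes of the 25771 tested. Satellite cells are the stem cells of skeletal muscle. They rest outside the cell cycle beneath the sheath of the muscle fibre, and they leave this quiescent state to divide when the muscle is injured or when they are placed in culture.

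All mice carried Cxcr4 FL/FL, a Cxcr4 gene flanked by loxP sites, and Pax7-ZsGreen, a reporter that marks satellite cells with green fluorescence, and the study treated them with tamoxifen at 80 mg/kg on 5 days. Cxcr4 KO mice also carried Pax7-creERT2, a tamoxifen-dependent recombinase made in Pax7-expressing cells, and WT mice did not, so that deletion of Cxcr4 and presence of the recombinase came together. Reporter-positive cells from hind limb muscle were profiled freshly sorted, called quiescent (4 WT and 4 Cxcr4 KO libraries), or after overnight culture, called activated (2 WT and 2 Cxcr4 KO libraries). The study's methods put its mice at 3 to 4 months of age. Whether each library came from a separate mouse was not given in the sources used here, so that the tests measure the spread between libraries.

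Once a cell has entered the cycle and before it copies its DNA, the origin recognition complex and the licensing factors Cdc6 and Cdt1 load the ring-shaped MCM helicase onto DNA. Cdc45, the GINS complex and Mcm10 then switch the helicase on, and primase, DNA polymerases, the sliding clamp PCNA with its loader RFC, and the single-strand binding protein RPA carry out synthesis from nucleotides that ribonucleotide reductase supplies. Many of these genes are known targets of E2F transcription factors, which the retinoblastoma protein holds back in quiescent cells.

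Between 12775593 and 23717013 reads per library were counted on genes in quiescent cells and between 3172164 and 5427280 in activated cells. The median member had 734 reads over the 4 WT quiescent libraries, but 128 over the 2 WT activated and 53 over the 2 Cxcr4 KO activated libraries, and 13 members had fewer than 20 reads in the latter pair. Cxcr4 itself averaged 80.5 ± 25.3 CPM (read counts scaled to a common library size, SD, n = 4) in WT quiescent and 17.1 ± 3.54 (n = 4) in Cxcr4 KO quiescent libraries, and 23.9 ± 13.4 and 9.54 ± 5.87 (n = 2 each) in activated ones. All 7 satellite cell markers, Pax7 among them, were detected in every group. Summed levels of the 6 mature muscle fibre markers were 232 to 819 CPM in quiescent and 5485 to 13460 CPM in activated libraries, and a ribosomal RNA gene took 0.295 to 0.807% and 11.5 to 40.3% of reads, respectively. In each state, however, Cxcr4 KO and WT ranges of the summed level overlapped for all 6 cell type marker lists (12 of 12 pairs). Single markers could still separate. Pax7 was at 303 to 482 CPM in WT and 181 to 290 CPM in Cxcr4 KO quiescent libraries. In activated libraries Vcam1 (51.1 and 37.7 CPM in WT, 31.6 and 9.13 CPM in Cxcr4 KO) and Itga7 (284 and 237, 204 and 141) were lower in Cxcr4 KO. Cdh15 was higher there (53.6 and 50.8 CPM in WT, 69.6 and 65.9 CPM in Cxcr4 KO). So were Col3a1 (68.5 and 50.8, 101 and 134), Dcn (66.65 and 72.25, 82.7 and 118) and Lum (9.31 and 10.5, 16.4 and 21.0). These mark fibroadipogenic progenitors, another muscle cell type, whose markers Pdgfra, Col1a1 and Ly6a overlapped. The blood marker Lyz2 was also higher in Cxcr4 KO (12.4 and 21.9, 23.4 and 33.1). The pericyte marker Cspg4 was lower (61.4 and 13.1, 6.42 and 8.90). The part of these differences in the results between genotypes was not tested. The quiescent libraries had the transcripts of male mice (Y-linked sum 358 to 660 CPM) and the activated ones those of female mice (Xist 451 to 817 CPM, Y-linked sum at most 2.51 CPM). State therefore cannot be told apart from sex, and the part of these marker and ribosomal RNA levels in the activation results was not tested, whereas the comparison of genotypes within a state is free of this difference. In bulk RNA, fewer expressing cells and less RNA per cell cannot be told apart.

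Promoters were examined first, because they are a property that the choice of genes did not use. RefSeq (GRCm38.p6) gave a promoter for 38 of the 45 members, taken as 250 bases before to 50 bases after the annotated start. A strict E2F motif (TTTCCCGC, TTTCGCGC, TTTGCCGC or TTTGGCGC on either strand) was found in 15 of these 38, or 39.5% (95% exact binomial interval 24 to 56.6%), beside 2.6% of 27025 genes with a promoter and 3.77% of the tested ones. Of its 21 matches, 12 began before the start. The CCAAT box, bound by the general factor NF-Y, was found in 24 of 38 (63.2%, beside 41.1% of all genes). The CHR element TTTGAA, read on either strand and typical of genes of late cell cycle, was found in 5 of 38 (13.2%, beside 20.2%). None of these spellings contains another, although E2F matches on both strands can share letters, and a match describes the sequence only.

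The 250 bases before the start are printed 5′ to 3′ for Rrm2, the gene with the strongest test result between genotypes, for the helicase genes Mcm3, Mcm5 and Mcm6, for Uhrf1, and for Orc2, which rose on activation in both genotypes. Capitals mark E2F and CCAAT matches.
Rrm2 (chr12:24708004-24708253, plus strand): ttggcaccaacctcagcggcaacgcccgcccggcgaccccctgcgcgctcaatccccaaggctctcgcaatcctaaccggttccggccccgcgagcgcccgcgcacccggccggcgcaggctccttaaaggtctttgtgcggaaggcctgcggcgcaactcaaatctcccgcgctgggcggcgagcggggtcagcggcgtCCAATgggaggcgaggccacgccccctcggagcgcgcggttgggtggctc
Mcm3 (chr1:20820313-20820562, minus strand): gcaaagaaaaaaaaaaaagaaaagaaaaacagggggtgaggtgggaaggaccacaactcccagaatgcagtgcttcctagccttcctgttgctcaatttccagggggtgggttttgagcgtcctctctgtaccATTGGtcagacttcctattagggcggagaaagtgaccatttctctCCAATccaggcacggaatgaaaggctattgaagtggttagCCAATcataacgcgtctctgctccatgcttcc
Mcm5 (chr8:75109259-75109508, plus strand): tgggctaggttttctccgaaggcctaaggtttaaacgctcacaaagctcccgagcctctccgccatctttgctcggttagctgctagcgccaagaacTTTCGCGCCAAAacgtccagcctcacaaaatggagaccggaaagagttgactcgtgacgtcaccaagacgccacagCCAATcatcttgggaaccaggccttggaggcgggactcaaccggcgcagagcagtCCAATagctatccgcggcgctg
Mcm6 (chr1:128359706-128359955, minus strand): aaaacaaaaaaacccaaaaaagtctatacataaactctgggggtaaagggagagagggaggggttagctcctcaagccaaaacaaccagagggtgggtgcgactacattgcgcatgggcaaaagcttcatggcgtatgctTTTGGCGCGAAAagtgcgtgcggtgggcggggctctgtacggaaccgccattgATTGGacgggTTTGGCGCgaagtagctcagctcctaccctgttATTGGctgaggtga
Uhrf1 (chr17:56304063-56304312, plus strand): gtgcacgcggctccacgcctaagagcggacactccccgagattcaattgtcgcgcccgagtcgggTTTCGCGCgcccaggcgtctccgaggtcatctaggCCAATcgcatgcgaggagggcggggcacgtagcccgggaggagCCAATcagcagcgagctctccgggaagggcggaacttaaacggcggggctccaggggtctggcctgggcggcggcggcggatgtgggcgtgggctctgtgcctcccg
Orc2 (chr1:58505110-58505359, minus strand): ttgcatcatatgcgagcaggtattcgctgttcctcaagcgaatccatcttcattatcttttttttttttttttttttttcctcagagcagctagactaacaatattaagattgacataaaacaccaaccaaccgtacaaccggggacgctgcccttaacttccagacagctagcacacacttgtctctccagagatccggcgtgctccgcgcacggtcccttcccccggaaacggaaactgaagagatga
The E2F matches form an overlapping pair in Mcm5 and in Mcm6, where reading from either strand gives a match, and Mcm6 held 3 in all. Uhrf1 had 1 match, 185 bases before the second of its RefSeq starts. The window of its first start, not printed, held 0 E2F and 3 CCAAT matches. For Mcm5 and Mcm6 the bases read after the RefSeq start matched no GENCODE transcript of the gene, so that their starts are less certain. In Mcm3 both E2F matches, at 19 and 38 bases after the start, fell beyond the printed stretch. The Rrm2 window held a single CCAAT box, 50 bases before the start, and none of the E2F spellings searched, and the Orc2 stretch held neither motif, although a CCAAT box lay 20 bases after its start and another 45 bases before a further RefSeq start of the gene.

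**Figure D1:**
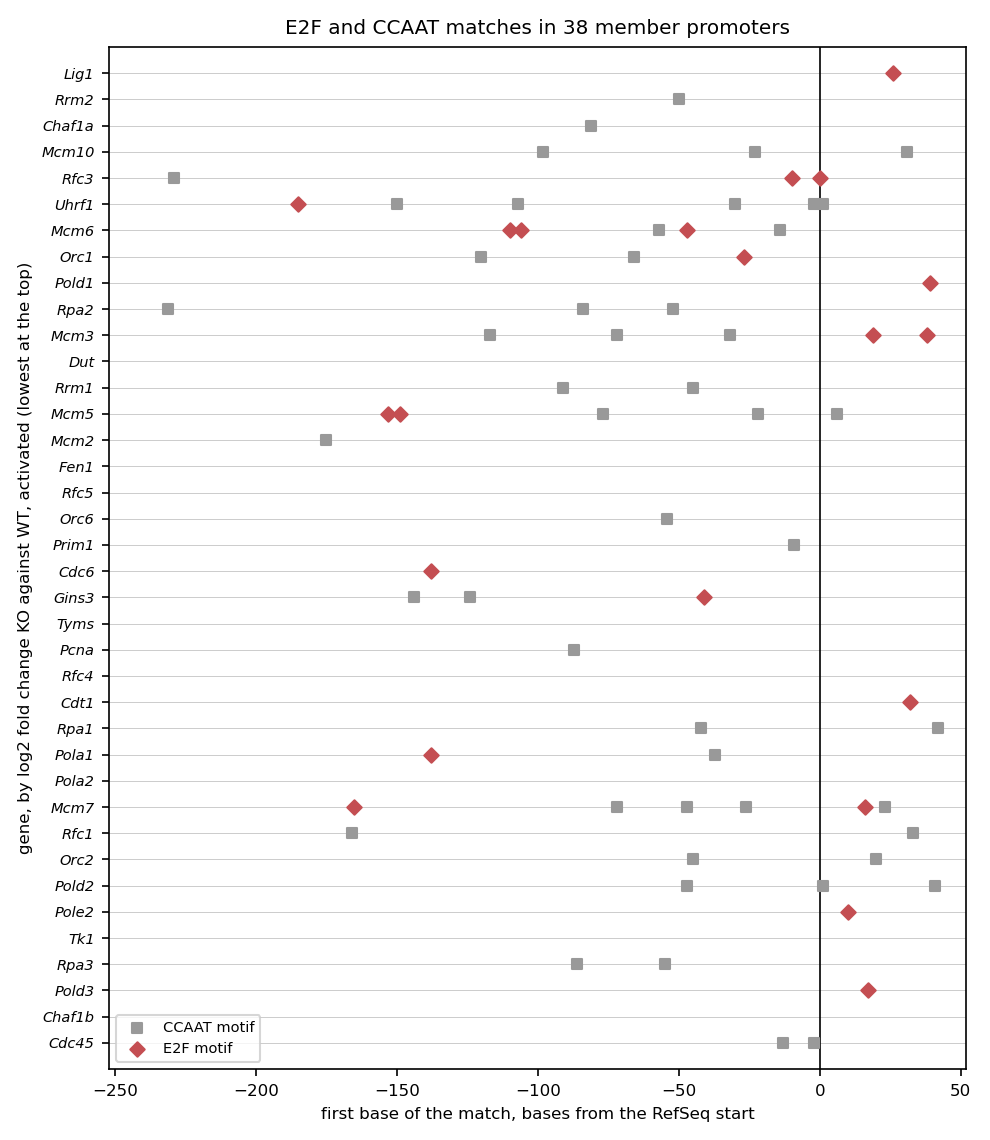
Position of E2F (red diamonds) and CCAAT (grey squares) matches in the promoters of the 38 members with a RefSeq entry, as the distance in bases of the first letter from the annotated start (x axis), with all starts of a gene drawn on 1 line and genes ordered by their log2 fold change between Cxcr4 KO and WT activated cells. E2F matches occur in 15 genes, among them Mcm3, Mcm5, Mcm6, Mcm7, Pold1, Pold3 and Rfc3, and the Rrm2 line has only a CCAAT box.

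Levels differed widely among members. Per kilobase of exon, Pcna, the sliding clamp, was the highest in WT activated cells at 66.8 ± 5.9 CPM per kb (SD, n = 2), followed by Pold2, an accessory subunit of polymerase delta, at 31.6 ± 4.12 and the helicase subunit Mcm7 at 22.1 ± 1.59. Cdt1 (16.3 ± 4.07), Rrm2, the small subunit of ribonucleotide reductase (13.8 ± 0.549), and the GINS subunit Gins4 (13.6 ± 0.936) followed, and among these 3 neighbours the values did not differ beyond their spread. The highest members of the remaining role groups were Rpa1 (9.67 ± 1.75), Uhrf1 (6.02 ± 0.377) and the DNA ligase Lig1 (0.997 ± 0.539). Cdc45, which completes the active helicase, was the lowest at 0.132 ± 0.0105 CPM per kb, from only 4 reads. Pcna was also the highest member in quiescent cells, at 97.8 CPM per kb in WT and 97.3 in Cxcr4 KO. A pseudogene, Pcna-ps2, is 99.2% identical to Pcna over its whole length and received 492 reads beside 39425 for Pcna, so that the split between both is uncertain.

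The first question was whether loss of Cxcr4 changed replication genes in resting cells. None of the 45 members passed the test between Cxcr4 KO and WT quiescent cells (edgeR quasi-likelihood test, adjusted p under 0.05, log2 fold change beyond 1 in either direction, mean normalized count over 10), beside 0.0155% of all genes, and none passed in any of the alternative fits, DESeq2 included. At an unadjusted p under 0.05 there were also 0 of 45, beside 1.74% of all genes. Log2 fold changes ran from -0.48 for Rfc4, a clamp loader subunit, to 0.60 for Mcm3 (SE 0.29), with a median of 0.06 beside 0.02 for all genes. In no member did the groups separate (beside 0.869% of all genes with KO above WT and 0.827% below). All 6 MCM genes were on the KO side of 0, by 0.05 to 0.60, where 46.6% of all genes lay below 0, and with groups that overlapped in each.

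On activation members were called in both directions. In WT cells 17 of 45 members passed, beside 26.2% of all genes: 14 rose (beside 9.65%) and 3 fell (beside 16.5%). Without WT activated replicate 2 these counts were 13 and 0, so that none of the 3 falls was called. The median member was 0.39 higher on the log2 scale, while the median of all genes was -0.92. With a mean count of at least 10 these medians were 0.46 and -0.46. In that fit 16 members rose, beside 2665 of 18738 genes. Of the 6 MCM helicase genes 4 rose, namely Mcm2, Mcm3, Mcm6 and Mcm7, and so did Orc2 and Cdt1 of the licensing group, Gins4, Pold1 and Pold2 of polymerase delta, the clamp loader subunit Rfc1, Rpa1 and Rpa2 of the single-strand binding complex, Rrm2, and Uhrf1, which guides maintenance of DNA methylation behind the fork. The largest rises were those of Mcm2, Orc2 and Mcm3.

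Mcm2 stood at 10.0, 16.4, 8.29 and 7.80 CPM in WT quiescent libraries and at 48.2 and 52.6 CPM in WT activated ones. It rose by 2.25 on the log2 scale (SE 0.36, edgeR adjusted p = 8.2e-05), with no overlap. Orc2, a core subunit of the origin recognition complex, stood at 11.02, 9.01, 9.39 and 8.77 CPM before and 35.3 and 49.5 CPM after culture, a log2 fold change of 2.14 (SE 0.26, edgeR adjusted p = 5e-06). About 29.8% of its exon bases are shared with Nif3l1 on the opposite strand, which was also higher after activation (1.65, SE 0.40), and whether counting used strand is not given in the sources used here. Mcm3 went from 8.46, 15.3, 7.19 and 10.7 to 39.9 and 49.9 CPM (log2 fold change 2.11, SE 0.35, edgeR adjusted p = 0.000125). Mcm6 and Pold2 followed at 1.79 (SE 0.40) and 1.53 (SE 0.29). The 3 members that fell were Cdc45 (-2.70, SE 0.86), the salvage enzyme thymidine kinase Tk1 (-1.45, SE 0.37) and Pold3, a further polymerase delta subunit (-1.08, SE 0.29). Tk1 went from 16.0, 14.4, 18.5 and 19.9 CPM to 7.35 and 4.82 CPM, and Cdc45 from 3.19, 2.696, 3.20 and 3.37 CPM to 0.49 and 0.438 CPM, the activated pair coming from 4 reads in total.

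Several of these rises were in the members of highest level per kilobase of exon in their role groups. Mcm7 went from 37.2, 46.0, 42.0 and 45.03 CPM in WT quiescent to 93.0 and 102.9 CPM in WT activated libraries (log2 fold change 1.20, SE 0.22, edgeR adjusted p = 0.000351). Pold2 went from 24.1, 15.1, 22.5 and 21.5 CPM to 65.4 and 54.3 CPM (edgeR adjusted p = 0.00045). In neither gene did the states overlap. Cdt1 was at 17.3, 15.04, 26.5 and 34.4 CPM before and 60.1 and 42.0 CPM after culture (1.14, SE 0.32, edgeR adjusted p = 0.0102). Rpa1 rose from 20.1, 23.4, 18.1 and 18.8 CPM to 47.1 and 60.9 CPM (1.42, SE 0.29, edgeR adjusted p = 0.000822). Gins4 went from 8.88, 8.23, 7.33 and 8.38 CPM to 17.5 and 19.3 CPM (1.16, SE 0.29, edgeR adjusted p = 0.0055), with close replicates in both states. Pcna was at 190, 190, 281 and 278 CPM before and at 150 and 170 CPM after culture, which did not pass (-0.55, SE 0.26, edgeR adjusted p = 0.113), and had the highest CPM of all members in both activated WT libraries.

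Calls differed among members of one complex, and the differences between members were not tested. Mcm4 had a log2 fold change of -0.03 (SE 0.29) and Mcm5 of 0.64 (SE 0.27, edgeR adjusted p = 0.0777) while their partners rose. Within polymerase delta, Pold1 (1.06) and Pold2 rose and Pold3 fell. Of GINS, Gins4 rose (1.16, SE 0.29), whereas Gins1 (-0.88), Gins2 (0.13) and Gins3 (1.38) did not pass, at SEs of 0.60 to 0.88. Rrm1, the large subunit of ribonucleotide reductase, was at -0.78 (SE 0.28, adjusted p = 0.0398, below the fold limit) while Rrm2 rose by 1.30 (SE 0.34). Pcna was at -0.55 (SE 0.26). None of the polymerase and primase genes outside polymerase delta passed, and Pola1, Pola2, Prim1, Prim2, Pole and Pole2 lay between -1.61 and 0.02. The licensing factors Cdc6, Orc1 and Orc6, the thymidylate enzymes Tyms and Dut, the clamp loader subunits Rfc2 to Rfc5, Rpa3, the flap nuclease Fen1, Lig1, and the chromatin assembly subunits Chaf1a and Chaf1b did not pass either.

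In Cxcr4 KO cells, 14 of 45 members passed on activation, beside 29.6% of all genes: 6 rose (beside 11.1%) and 8 fell (beside 18.5%). The median member was at -0.29 where the median of all genes was -0.96, and at -0.22 beside -0.49 with a mean count of at least 10. All 6 that rose, Cdt1, Gins4, Mcm2, Orc2, Pold2 and Rpa1, had also risen in WT, which left 8 of the 14 WT rises without a call in Cxcr4 KO. The matching overlap over all genes is not given here. A call in only 1 genotype is not itself a difference between genotypes, which the interaction term below tests. Mcm7 (0.89, SE 0.22, adjusted p = 0.00421) and Rfc1 (0.95, SE 0.34) were among these 8 only because of the fold limit. The 8 that fell were Mcm4 (-2.43), Rrm1 (-1.65), Rrm2 (-1.78), Chaf1a (-1.81), Lig1 (-2.79), the primase Prim1 (-1.94), Pole, the catalytic subunit of polymerase epsilon (-1.98), and Tk1 (-1.15). Tk1 alone fell in both genotypes, and Rrm2 rose in WT and fell in Cxcr4 KO. The split rested on single libraries. Without Cxcr4 KO activated replicate 1 there were 2 rises and 6 falls, 8 in all, and without replicate 2 the rises outnumbered the falls, 7 to 5.

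**Figure D2:**
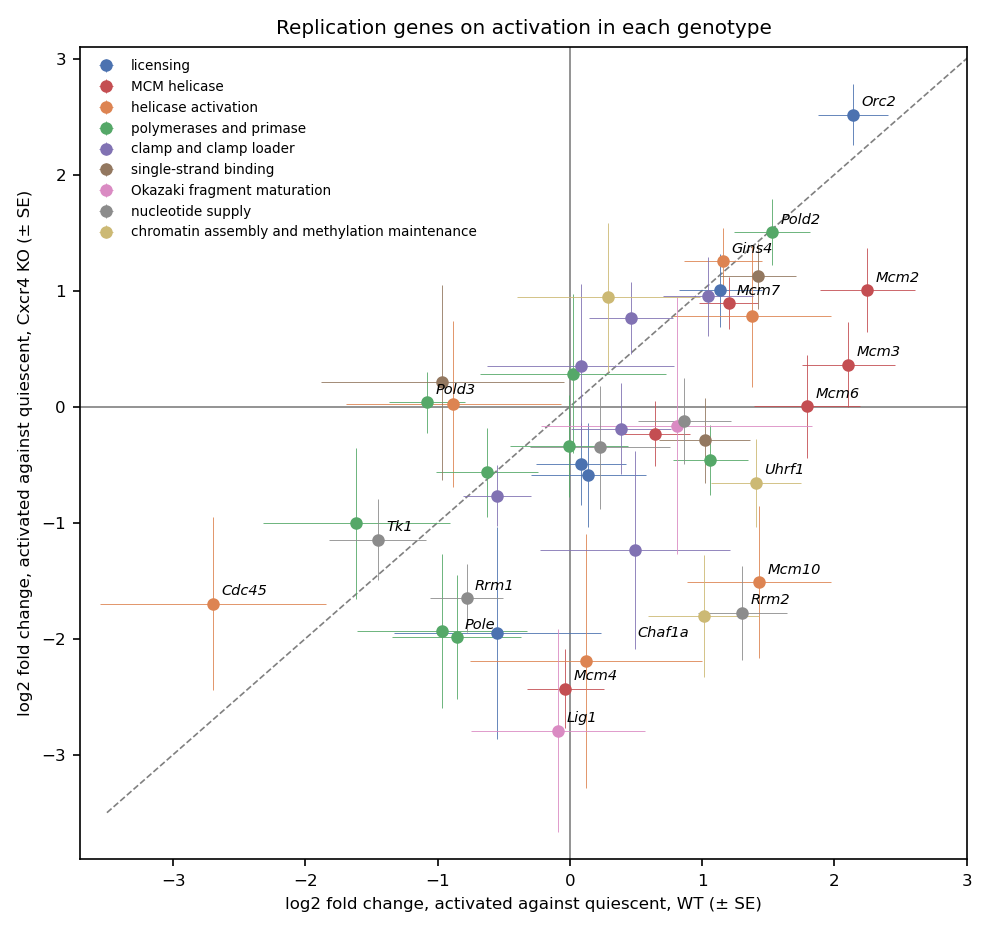
Log2 fold change from quiescent to activated cells in WT (x axis) and in Cxcr4 KO (y axis) for each of the 45 members, coloured by role, with bars of 1 SE and a dashed line of equal change. Orc2, Pold2 and Gins4 lie near the line, Mcm2, Mcm3 and Mcm6 lie to its right, and Rrm2, Mcm10 and Chaf1a lie above 0 in WT and below 0 in Cxcr4 KO.

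The second question was whether loss of Cxcr4 changed these genes in activated cells. Rrm2 and Mcm4 passed, both lower in Cxcr4 KO, which is 2 of 45 beside 0.0504% of all genes in either direction and 0.0194% lower. The study already lists both genes as lower in activated Cxcr4 KO cells from these same data, so the calls are not independent of it. At an unadjusted p under 0.05 there were 14 members lower in Cxcr4 KO (beside 4.11% of all genes) and 1 higher (beside 4.26%). Some members entered only through their reads in quiescent libraries. When edgeR was fitted to the activated libraries alone, 35 of the 45 had enough reads, without Lig1 and Rfc3 of those 14. At an unadjusted p under 0.05 there were then 11 members in either direction, beside 808 of 12283 genes. Of the 45, 32 had a log2 fold change below 0, beside 37.6% of all genes, and the median was -0.56 where that of all genes was 0. These shares of all genes are held down by genes without a difference, since 9690 of 25771 lay below 0, 11422 above, and the rest at 0. In the edgeR fit on the activated libraries alone 6225 of 12283 genes lay above 0, with a median of 0.007. There 26 of 35 members lay below 0, with a median of -0.57. Both Cxcr4 KO libraries lay below both WT libraries in 20 members (beside 9.5% of all genes) and above both in 2 (beside 15.2%). The sum over the 45 members was 998 and 1011 CPM in WT activated and 892 and 660 CPM in Cxcr4 KO activated libraries, and 699 to 802 CPM in quiescent ones.

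**Figure D3:**
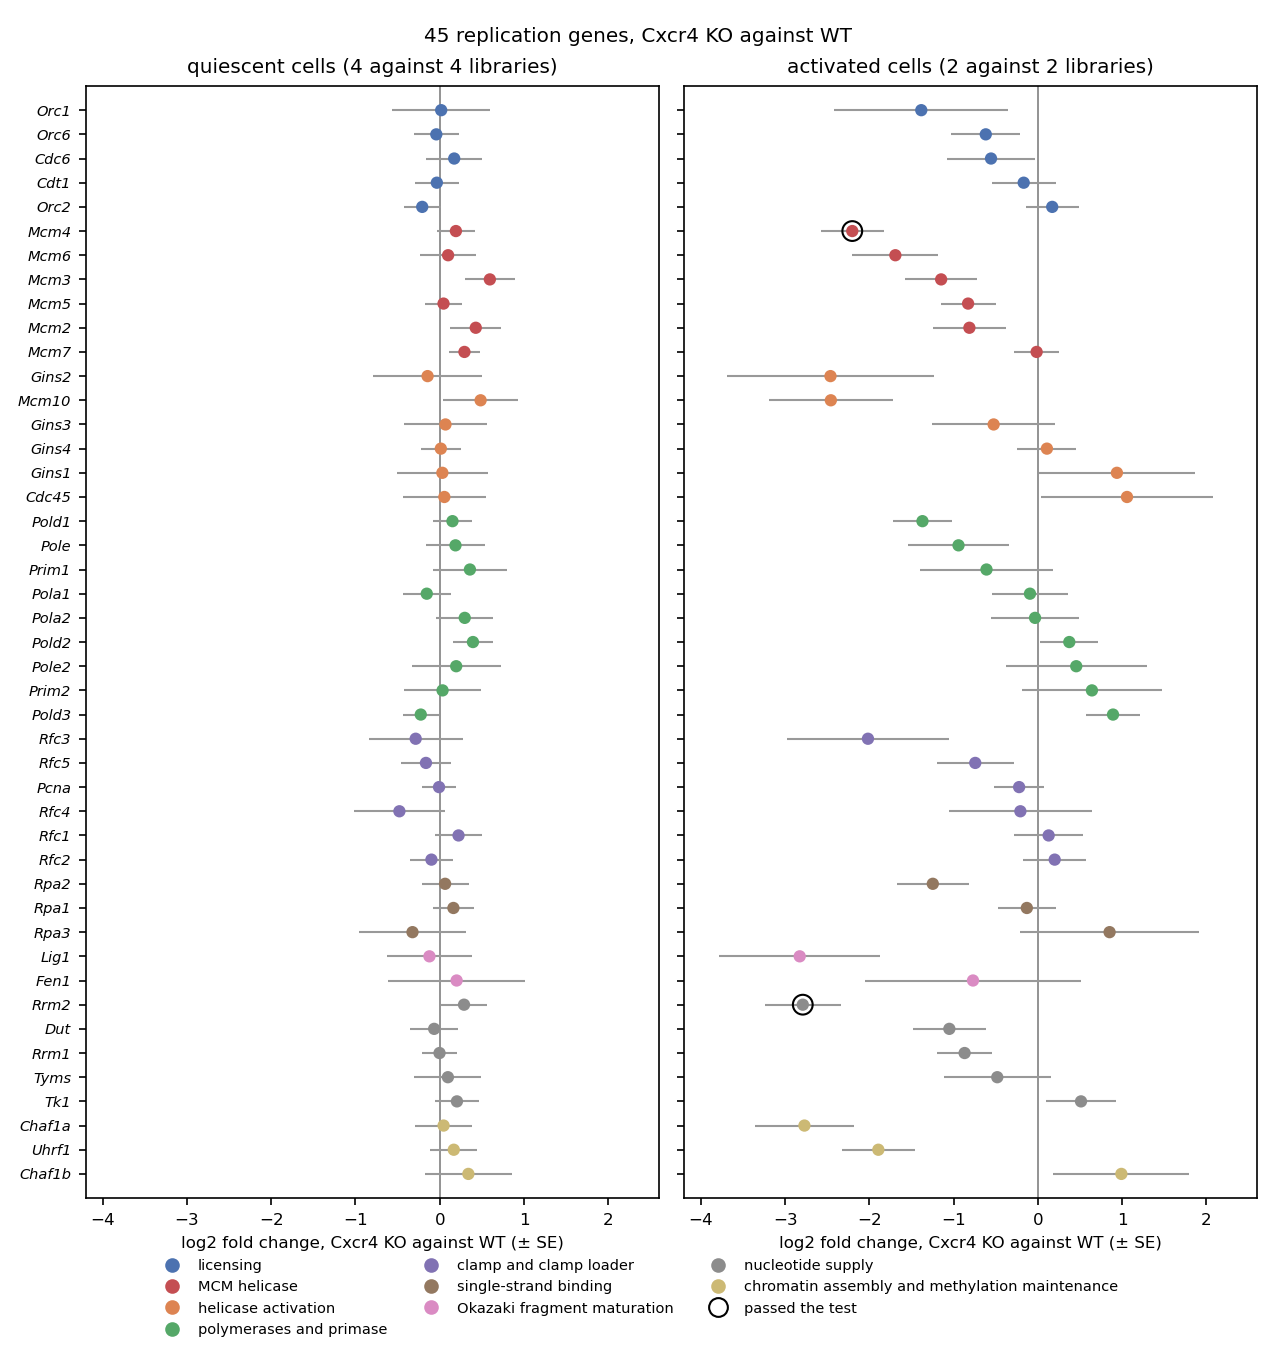
Log2 fold change between Cxcr4 KO and WT (x axis, bars of 1 SE) for the 45 members, grouped and coloured by role, in quiescent (left) and activated cells (right), with open circles around members that passed the test. Quiescent values lie within -0.48 to 0.60, and activated values reach -2.83 for Lig1, with circles at Rrm2 and Mcm4.

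Rrm2 (chr12:24708241-24714146, plus strand, GRCm38) limits the rate at which deoxynucleotides are made. Its level was 39.4 and 37.2 CPM in WT activated libraries, 7.96 and 3.19 CPM in Cxcr4 KO activated ones, 15.4, 19.8, 10.6 and 16.3 CPM in WT quiescent and 12.3, 21.2, 19.3 and 23.0 CPM in Cxcr4 KO quiescent ones. Both activated KO libraries thus lay below every quiescent library and both activated WT libraries above. Rrm2 was 6.92-fold lower in Cxcr4 KO activated cells (log2 fold change -2.79, SE 0.45, edgeR adjusted p = 0.0356, lower in 2 of 2 libraries). The adjusted p ran from 7.06e-07 to 0.192 over the other 9 fits, of which 7 kept the call, and leaving out any 1 of 12 libraries kept it in 6. Its partner Rrm1 was at 20.6 and 26.3 CPM in WT and 10.5 and 14.8 CPM in Cxcr4 KO activated cells, also without overlap (log2 fold change -0.87, SE 0.33, adjusted p = 0.447), and all 8 quiescent libraries lay higher, at 32.5 to 48.5 CPM.

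Mcm4 (chr16:15623897-15637400, minus strand), a helicase subunit, was at 25.5 and 34.6 CPM in WT activated and 7.96 and 5.02 CPM in Cxcr4 KO activated libraries. All 8 quiescent libraries lay between 25.2 and 44.6 CPM, so that the activated KO pair stood alone below the rest. Mcm4 was 4.61-fold lower in Cxcr4 KO (log2 fold change -2.20, SE 0.37, edgeR adjusted p = 0.0429, lower in 2 of 2), with an adjusted p of 9.05e-05 to 0.292 over the other 9 fits, 6 of which kept the call, and it kept its call in 4 of the 12 fits that left out 1 library. Neither Rrm2 nor Mcm4 was called without WT activated replicate 1, Cxcr4 KO activated replicate 2, Cxcr4 KO quiescent replicate 2 or WT quiescent replicate 1, 2 or 4, and Mcm4 alone was lost without Cxcr4 KO quiescent replicate 1 or WT quiescent replicate 3. Their log2 fold changes stayed between -3.60 and -2.32 and between -2.59 and -1.96 in those fits.

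None of the remaining MCM subunits passed between genotypes in activated cells. Mcm6 was at 16.5 and 11.8 CPM in WT and 5.91 and 2.97 CPM in Cxcr4 KO, just above and just below the range of its quiescent libraries (3.28 to 5.34 CPM), and its log2 fold change was -1.69 (SE 0.51, adjusted p = 0.28). Mcm3 was at 39.9 and 49.9 CPM in WT and 29.3 and 11.2 CPM in Cxcr4 KO (-1.15, SE 0.43, adjusted p = 0.447). Mcm5 was at 25.7 and 24.96 CPM in WT and 14.1 and 14.4 CPM in Cxcr4 KO, beside 13.9 to 19.6 CPM in quiescent cells, so that replicates lay close and the groups apart (-0.83, SE 0.33, adjusted p = 0.475). For Mcm2 the Cxcr4 KO pair was wide, 41.9 and 15.5 CPM, below 48.2 and 52.6 CPM in WT (-0.81, SE 0.44, adjusted p = 0.649). Mcm7 was at 93.0 and 102.9 CPM in WT and 94.8 and 98.8 CPM in Cxcr4 KO, with a log2 fold change of -0.02 (SE 0.26). All 6 were below 0, and 5 of 6 had both KO libraries below both WT libraries.

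Among the other members with an unadjusted p under 0.05, those that act on chromatin behind the fork had some of the largest differences. Chaf1a, the large subunit of the histone chaperone CAF-1, was at 10.5 and 9.20 CPM in WT and 1.03 and 1.82 CPM in Cxcr4 KO activated cells, and at 3.23 to 6.35 CPM over all quiescent libraries. Its log2 fold change was -2.77 (SE 0.58, adjusted p = 0.108). Chaf1a shares 52.5% of its exon bases with Ubxn6 on the opposite strand, whose own log2 fold change was 0.36 (SE 0.65). Uhrf1 was at 26.8 and 24.5 CPM in WT and 7.45 and 6.39 CPM in Cxcr4 KO (-1.89, SE 0.43, adjusted p = 0.133), and at 6.47 to 14.6 CPM in quiescent cells. Chaf1b, the second CAF-1 subunit, lay the other way, with 4.37 and 2.74 CPM in Cxcr4 KO above 2.12 and 1.31 CPM in WT (0.99, SE 0.81, adjusted p = 0.846).

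Mcm10, which helps the loaded helicase to open DNA, was at 11.4 and 10.5 CPM in WT and 0.257 and 3.65 CPM in Cxcr4 KO activated cells (log2 fold change -2.46, SE 0.73, adjusted p = 0.278). The KO pair came from 17 reads in total, and leaving out 1 library moved this value between -5.43 and -1.61. Lig1, which seals Okazaki fragments, was at 5.88 and 2.63 CPM in WT and 1.28 and 0 CPM in Cxcr4 KO, from 42 and 5 reads (-2.83, SE 0.96, adjusted p = 0.372). Leaving out 1 library moved it between -9.10 and -1.84. Both values thus rest on few reads. In quiescent libraries Mcm10 ranged from 2.07 to 7.93 CPM and Lig1 from 2.41 to 8.23 CPM.

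Pold1, the catalytic subunit of polymerase delta, was at 36.4 and 44.2 CPM in WT and 17.0 and 14.1 CPM in Cxcr4 KO (log2 fold change -1.37, SE 0.35, adjusted p = 0.193), and at 15.8 to 30.6 CPM in quiescent cells. Pold3, in contrast, was the only member with an unadjusted p under 0.05 that was higher in Cxcr4 KO, at 31.9 and 28.7 CPM beside 20.1 and 11.8 CPM in WT (0.89, SE 0.32, adjusted p = 0.418). Both Cxcr4 KO activated values of Pold3 lay within the range of quiescent cells, 26.0 to 37.7 CPM, and the WT activated level lay below it. Pold2 was at 65.4 and 54.3 CPM in WT and 107 and 48.8 CPM in Cxcr4 KO, an overlap.

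The remaining members of this kind were Rpa2 and Rfc3 and the enzyme Dut, which removes dUTP. Rpa2 was at 18.6 and 21.5 CPM in WT and 7.19 and 9.58 CPM in Cxcr4 KO (log2 fold change -1.25, SE 0.43, adjusted p = 0.381). Dut was at 25.3 and 13.1 CPM in WT and 12.3 and 6.62 CPM in Cxcr4 KO (-1.05, SE 0.43, adjusted p = 0.511). Rfc3, at 2.94 and 3.06 CPM in WT and 1.03 and 0.456 CPM in Cxcr4 KO (-2.02, SE 0.96, adjusted p = 0.595), came from 25 and 6 reads. Each of these pairs was separate. In the quiescent libraries of both genotypes Rpa2 ranged from 6.74 to 13.2 CPM, Dut from 8.22 to 12.8 CPM and Rfc3 from 0.478 to 3.12 CPM, so that the Cxcr4 KO activated values of Rpa2 lay within the quiescent range and the WT activated values above it.

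The 6 members that had risen in both genotypes were, by that choice, high in Cxcr4 KO activated libraries, so that their differences between genotypes are only a description. In Mcm2, as given above, both Cxcr4 KO libraries lay below both WT libraries, and in the other 5 the genotypes overlapped. Orc2 was at 35.3 and 49.5 CPM in WT and 52.1 and 42.7 CPM in Cxcr4 KO activated cells (log2 fold change 0.17, SE 0.31), beside 7.15 to 11.02 CPM in quiescent ones. Gins4 was at 17.5 and 19.3 CPM in WT and 20.3 and 19.2 CPM in Cxcr4 KO (0.11, SE 0.35). The log2 fold changes were -0.17 (SE 0.38) for Cdt1, -0.13 (SE 0.34) for Rpa1 and 0.37 (SE 0.35) for Pold2. Pcna, which had risen in neither genotype, at 150 and 170 CPM in WT and 153 and 121 CPM in Cxcr4 KO, had a log2 fold change of -0.22 (SE 0.29) between genotypes. The licensing group as a whole had 0 of 5 members at an unadjusted p under 0.05 and a median of -0.56, and the polymerases and primase had a median of -0.03 over 9 members. The MCM group had a median of -0.99 over 6, and nucleotide supply -0.87 over 5.

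**Figure D4:**
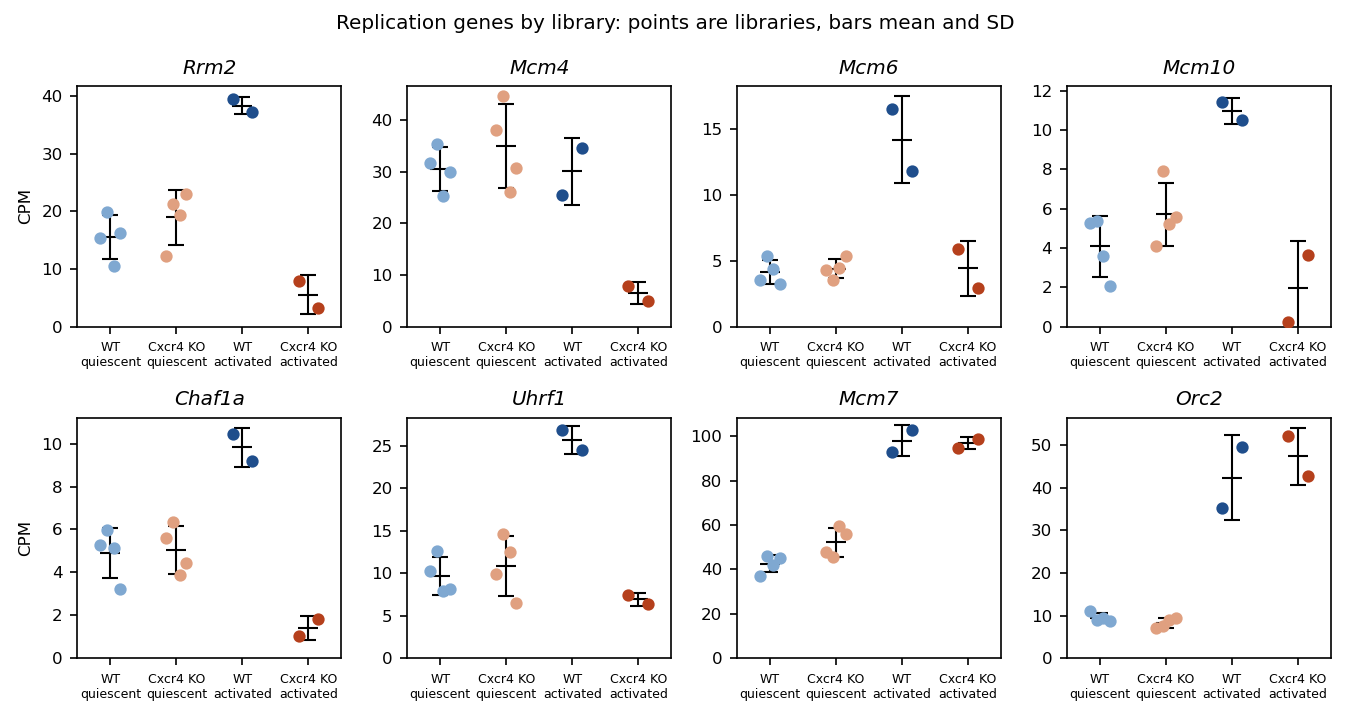
CPM (y axis) in each of the 12 libraries for 8 members, by genotype and state, with points for libraries and bars for the mean and SD (cut at 0 CPM for Mcm10). Rrm2, Mcm4, Mcm10, Chaf1a and Uhrf1 are low in both Cxcr4 KO activated libraries, while Mcm7 and Orc2 overlap there with the WT activated ones.

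Whether the effect of genotype differed between the states was tested by the interaction term, which also compares activation between genotypes. None of the 45 members passed, nor did any gene (0% of 25771), while 14 members had an unadjusted p under 0.05, 13 of them lower (beside 6.59% of all genes in either direction and 3.39% lower). DESeq2 on all libraries called 4 members and the fit without a filter on low counts called 3. The closest were Rrm2, with a difference of -3.08 on the log2 scale (SE 0.53, edgeR adjusted p = 0.0731), and Mcm4, with -2.40 (SE 0.44, edgeR adjusted p = 0.0871). Mcm10 (-2.94, SE 0.86), Chaf1a (-2.82, SE 0.67) and Uhrf1 (-2.06, SE 0.51) had adjusted p-values of 0.424, 0.29 and 0.321. For Mcm10, Rrm2 and Chaf1a, 3 of 45 members, the activated libraries lay above all quiescent ones in WT and below all of them in Cxcr4 KO, a pattern shown by 0.163% of all genes. All 6 MCM genes had a negative difference, from -0.31 for Mcm7 to -2.40 for Mcm4 (beside 49% of all genes below 0), and 5 of them had an unadjusted p under 0.05.

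**Figure D5:**
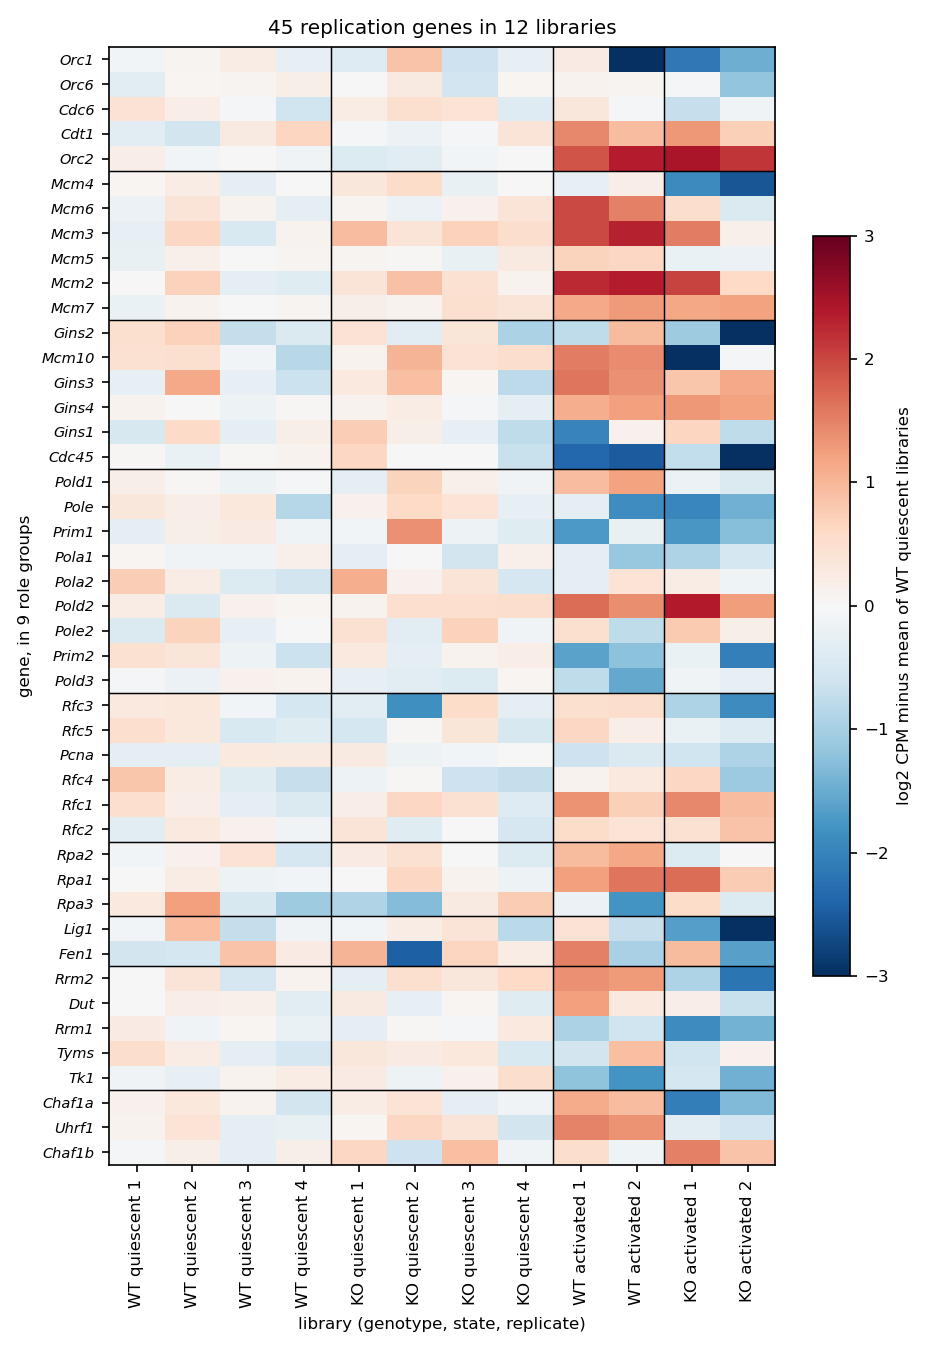
Log2 CPM of each member (rows, in role groups) in each of the 12 libraries (columns) minus its mean in the WT quiescent libraries, with colours cut at 3 log2 units on either side. Most quiescent cells are pale in both genotypes, with exceptions in Cxcr4 KO quiescent replicate 2 such as Fen1 and Rfc3 (blue) and Prim1 (red), and the Cxcr4 KO activated columns are blue for Mcm4, Rrm1, Rrm2, Chaf1a and Lig1 where the WT activated columns are pale or red, except for Rrm1, which is blue in both.

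Members with and without the E2F motif were set side by side for these comparisons. In activated cells 13 of 15 members with the motif were lower in Cxcr4 KO (median -0.83), and 16 of 23 without it (median -0.48). On activation in WT, 11 of 15 with the motif and 16 of 23 without had a positive log2 fold change (66.9% of all genes were below 0), with medians of 0.64 and 0.39. Neither of the members called between genotypes counts here as motif-bearing, since Rrm2 had none of the spellings and no promoter was examined for Mcm4. Of members with a CCAAT box, 19 of 24 were lower in Cxcr4 KO activated cells (median -0.72), as were 10 of 14 without (median -0.35). These are counts without a test.

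A further 37 genes of the same pathway, outside the 45, were counted in the same way. In activated cells none passed in edgeR between Cxcr4 KO and WT (beside the 0.0504% above), 4 had an unadjusted p under 0.05, all lower in Cxcr4 KO (beside 4.11% of all genes), and the median was -0.34. Those 4 were Clspn (-2.86, SE 0.79) and Timeless (-1.94, SE 0.60), which protect the fork, Dbf4, the activator of the Cdc7 kinase (-1.23, SE 0.51), and the licensing inhibitor Gmnn (-2.56, SE 1.21). On activation in WT, 5 of the 37 rose (beside 9.65% of all genes), among them the origin subunit Orc5 (1.41, SE 0.41), and 3 fell (beside 16.5%), with a median of 0.19. In Cxcr4 KO 6 rose (beside 11.1%) and 7 fell (beside 18.5%), with a median of -0.12.

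Genes of mitosis were set beside the replication genes, and the difference between both lists was not tested. Of 18 mitotic genes, 0 rose and 5 fell in WT (beside 9.65% and 16.5% of all genes), among them Top2a (-1.56, SE 0.56) and Cenpa (-2.48, SE 0.64), with a median of -1.23 beside 0.39 for the 45 members and -0.92 for all genes. In Cxcr4 KO, 0 rose and 14 fell (beside 11.1% and 18.5%), with a median of -3.38 beside -0.29 for the members and -0.96 for all genes. Between genotypes in activated cells none of the 18 passed in edgeR, 4 had an unadjusted p under 0.05, all lower in Cxcr4 KO (Cdc20, Mki67, Cdk1 and Ccna2, beside 4.11% of all genes), and the median was -1.02. Several of the 18 were near the floor in activated libraries. Ccnb1 and Kif11 had 0 CPM in all of them, and Cdk1 was at 0.163 and 2.63 CPM in WT and at 0 in Cxcr4 KO. The medians of this list therefore include log2 fold changes from few or no reads. The proliferation marker Mki67 was at 18.3 and 7.01 CPM in WT and 0.771 and 3.88 CPM in Cxcr4 KO activated cells, below the 10.3 to 70.0 CPM of quiescent libraries in all but 1 of these 4.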

How the data were processed

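The authors trimmed reads with Trim Galore 0.6.0, mapped them to GRCm38 with STAR 2.7.2a and counted them on GENCODE genes, and deposited whole-number counts for 12 libraries and 1 FPKM value per group, used here only to check the order of levels. How multiply mapped reads and strand were treated is not given in the sources used here. Counts were tested with edgeR 4.0.16 in R 4.3.3 (filterByExpr, TMM scaling, 1 quasi-likelihood fit with 4 group means), with Benjamini-Hochberg adjustment over all genes tested. The study used DESeq2, run here as an alternative (version 1.42.0). A standard error is the log2 fold change over the root of its F statistic, and CPM follow TMM scaling, with a prior count of 2 for log2 values. Exon lengths came from GENCODE, promoters from RefSeq, and copies of members from blastn 2.17.0 (at least 90% identity over 80% of the copy). The fit was tested on simulated data. Members and lists were chosen with earlier results of these data known. Values per library, or ranges, are given for members with an unadjusted p under 0.05 between genotypes, the highest member per kilobase in each role group, and up to 5 rises and falls in WT. Alternatives were other scaling, filters, fits on the compared groups, a replicate block, removal of the ribosomal RNA gene, and leaving out each library.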

Additional observations from a re-analysis of the deposited data

Results flagged for a closer look

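The difference in activation between Cxcr4 KO and WT was -3.08 on the log2 scale for Rrm2, -2.94 for Mcm10 and -2.82 for Chaf1a, where every activated library lay above the quiescent ones in WT and below them in Cxcr4 KO. The interaction test of edgeR gave adjusted p-values of 0.0731, 0.424 and 0.29.

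Single quiescent libraries lay apart from the other 3 of their group in 6 of 90 groups of 4, and chance alone sets apart about 1 in 20. In WT quiescent cells these were the highest value of Gins3 (4.83 CPM, in a range from 1.3 CPM) and the lowest of Pole (4.53 CPM, in a range up to 10.6 CPM). In Cxcr4 KO quiescent cells they were the highest values of Prim1 (12.1 CPM) and Orc1 (5.12 CPM) and the lowest values of Pold2 (21.96 CPM) and Tyms (3.16 CPM).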

How the results depend on the processing

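The count of members passing between Cxcr4 KO and WT activated cells, 2 in the report, depended on the fit. It was 7 with DESeq2 on all 12 libraries, 5 when genes of low counts were kept, 1 with the replicate block on the compared groups, and 0 with edgeR on the compared groups or with genes of a mean count of at least 10, and 0 to 3 when 1 library was left out; the cause was not tested. For the difference between states it was 4 with DESeq2 fitted to all libraries, 3 when genes of low counts were kept, and 0 to 2 when 1 library was left out, beside 0 in the report. On activation the counts were 13 to 18 in WT and 8 to 14 in Cxcr4 KO when 1 library was left out, and in quiescent cells 0 throughout. The median log2 fold change of members kept its sign in every fit, with left-out ranges of 0.02 to 0.18 (quiescent), -0.70 to -0.37 (activated), -0.77 to -0.46 (difference), 0.26 to 0.59 (activation, WT) and -0.57 to -0.16 (activation, Cxcr4 KO). The E2F motif was in 23.7% of members when only the 250 bases before the start were read. Whether replicate numbers pair the libraries was not settled. WT and Cxcr4 KO quiescent libraries of the same number correlated at 0.24, 0.165, -0.266 and 0.587 in their deviations from group means. In activated cells, with 2 libraries per genotype, same-numbered pairs (-0.0705) and differently numbered pairs (0.0705) must have equal size and opposite sign. This leaves a single value, which alone did not settle the pairing. The ribosomal RNA gene took 12.6 and 11.5% of reads in WT and Cxcr4 KO activated replicates 1, and 40.3 and 28.8% in replicates 2. On the activated groups alone the replicate block called 23 of 12283 genes, 1 of them a member, beside 3 and 0 in edgeR without it. The replicate block on all 12 libraries left the count of members at 2. With 2 activated libraries per genotype and 3172164 to 5427280 reads in each, differences of members with few reads, such as Lig1, Rfc3 and Mcm10, were not resolved.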

Other observations

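Between the 2 Cxcr4 KO activated libraries these genes were shifted to one side more than between the WT pair, which does not measure how far single genes differed. Replicate 1 was higher than replicate 2 in 31 of 45 members, with a median difference of 0.52 on the log2 scale, beside 26 of 45 and 0.12 in WT. Among processed pseudogenes of members, Gm5487, a copy of Mcm7 with 97.7% identity, received 114 reads beside 9055 for Mcm7, and Gm48455, a copy of Rrm2 with 95.5% identity, received 25 beside 3024.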
